A study of Sus scrofa with 3 samples.

Results

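DNA replication and mitosis genes were followed across 3 pig cell populations, with 1 library each. The set holds 41 genes, listed by symbol, and all 41 had a row among the 26466 gene symbols counted. It was divided by textbook role into 19 S phase genes, which supply nucleotides, license origins, copy DNA or control entry into replication, and 22 mitotic genes, which act on chromosomes, the spindle or their timing. MKI67, TOP2A and CCNA2 were placed with the mitotic genes although their products are also present in S phase.

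The populations were peripheral blood mononuclear cells (PBMC), the lymphocytes and monocytes of blood, mesenchymal stem cells derived from bone marrow (BM-MSC), and a population whose label reads bone marrow attached cell (BMAC). All came from Sus scrofa, and the labels name no treatment, genotype, age, culture time or passage, nor the animal behind each library. RNA was made into QuantSeq libraries, which count fragments near the 3' end of transcripts. The study's stated purpose was to compare gene expression profiles between these populations. With 1 library per population no difference below has a replicate check, and none was tested.

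A dividing cell first loads the MCM helicase onto replication origins with CDC6 and CDT1, then fires the origins under cyclin E, cyclin A and CDK2 while ribonucleotide reductase and thymidylate synthase supply building blocks. Mitosis is driven by CDK1 with B-type cyclins and by Aurora and Polo kinases, and ends when the anaphase-promoting complex destroys the cyclins. Many of these genes are transcribed in one part of the cycle, the replication genes under E2F factors and the mitotic genes later with FOXM1, so that their transcripts are low in resting cells. Most lymphocytes and monocytes of blood are known as resting cells, and marrow stromal cells as cells that can divide in culture. In RNA from a whole population, fewer cycling cells and less of a transcript per cell cannot be told apart.

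Total counts were between 15122997 and 17069344 per library, and levels are given as counts per 1000000 counts of that total (CPM), in the order PBMC, BM-MSC, BMAC where no library is named. A count of 3 was worth between 0.176 and 0.198 CPM. The labels were checked against markers. Of 8 stromal markers, 8 reached 10 CPM in BM-MSC and in BMAC and 1 in PBMC, where LUM had 0 counts. Of 3 pan-leukocyte markers, 3 reached 10 CPM in PBMC and 0 in the marrow libraries, where they summed to 1.82 and 2.05 CPM against 4262 CPM. Markers of T and NK cells summed to 724 CPM in PBMC, with 2.52 in BM-MSC and 1.85 in BMAC. Those of B and plasma cells summed to 1198, 4.75 and 6.15 CPM, and those of monocytes and macrophages to 455, 7.73 and 18.6 CPM. CD3D and CD79B were at 0 counts in both marrow libraries, as was HBB of the erythroid and progenitor markers, which summed to 25.4, 2.52 and 1.59 CPM. CD14, a monocyte gene that other cells can express, was the 1 leukocyte marker at 10 CPM in a marrow library. It stood at 17.3 CPM in BMAC against 12.9 in PBMC. Ribosomal RNA rows, counted together with 4 LOC rows whose counts were close to or above those of RN18S, took 7.43% of the PBMC counts, 17.6% of those of BM-MSC and 13.2% of those of BMAC.

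Across the 41 genes, BM-MSC was the library with the lowest level for 37, PBMC for 4 and BMAC for 0, except that PCNA and CDC20 were lower in PBMC than in BM-MSC after rescaling the libraries to their common genes (TMM or median-of-ratios factors). PBMC was the highest for 25, BMAC for 14 and BM-MSC for 2, and 25 genes followed the order PBMC, BMAC, BM-MSC. For 8 of these 25 the direction between PBMC and BMAC turned with TMM factors, namely CDT1, MCM2, MCM4, MCM7, CCNE1, E2F1, MKI67 and NUSAP1. The S phase genes together took 524 CPM in PBMC (95% exact Poisson interval 513 to 536), with 304 in BM-MSC (296 to 312) and 406 in BMAC (396 to 417). Mitotic genes summed to 690 CPM in PBMC (677 to 703), with 195 in BM-MSC (189 to 202) and 605 in BMAC (593 to 618). The mitotic sum was thus 3.53-fold lower in BM-MSC than in PBMC (95% interval for counting error 3.40 to 3.67), and the S phase sum 1.72-fold (1.67 to 1.79). BMAC lay near PBMC, 1.14-fold lower for mitotic genes (1.11 to 1.17) and 1.29-fold lower for S phase genes (1.25 to 1.33). With TMM factors the mitotic sum was instead 1.07-fold higher in BMAC and the S phase sum 1.06-fold lower, while BM-MSC stayed below PBMC, 2.80-fold and 1.37-fold. All intervals here cover counting error only, with each read taken as a separate molecule, and not the variation between animals or preparations.

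**Figure D1:**
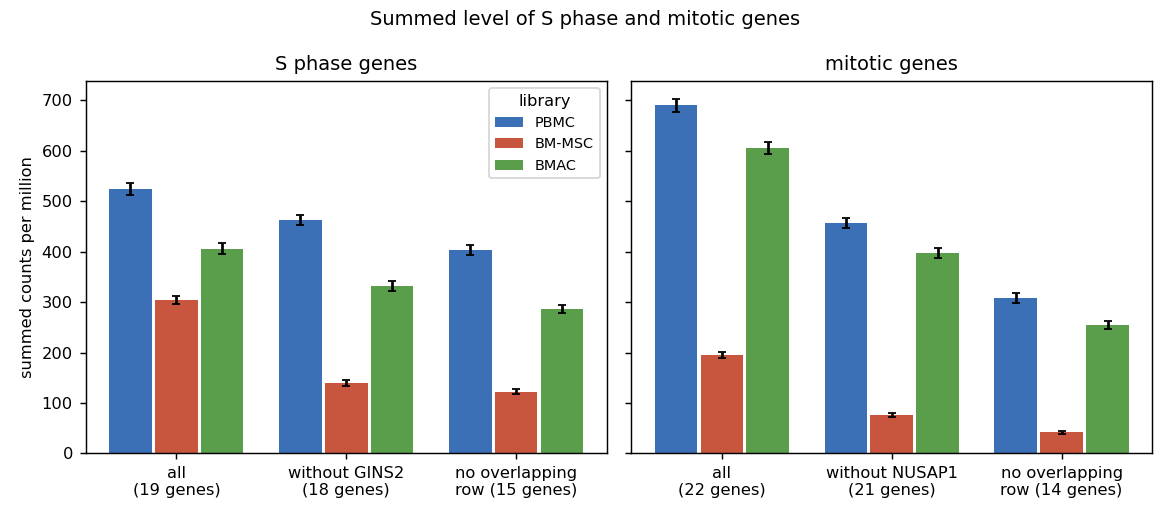
Summed level of the S phase genes (left) and mitotic genes (right) in the 3 libraries, in CPM, for all genes, without the member with the highest count, and without members whose row overlaps another gene; bars are sums and whiskers 95% exact Poisson intervals. The BM-MSC bar is the lowest in each group, and without GINS2 its S phase sum is 140 CPM against 463 CPM in PBMC.

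The size of the S phase difference rested on GINS2. Without this gene the S phase sum was 463 CPM in PBMC, with 140 in BM-MSC and 331 in BMAC, and the fold between PBMC and BM-MSC became 3.30 (3.15 to 3.46). GINS2 overlaps the gene GSE1 in the RefSeq annotation, and as strand use is unknown, its reads may belong to either. In all, 12 of the 41 genes overlap a row holding at least 25% of their count, 4 of them S phase and 8 mitotic. Over the 14 mitotic genes without such a row, PBMC exceeded BM-MSC 7.42-fold (6.86 to 8.04), and over the 15 S phase genes 3.30-fold (3.14 to 3.47). The ratio of mitotic to S phase counts, compared only between libraries, was 1.32 in PBMC (1.28 to 1.36), with 0.643 in BM-MSC (0.615 to 0.671) and 1.49 in BMAC (1.44 to 1.54). Over genes without an overlapping row it was 0.764, 0.340 and 0.886, lowest again in BM-MSC.

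**Figure D2:**
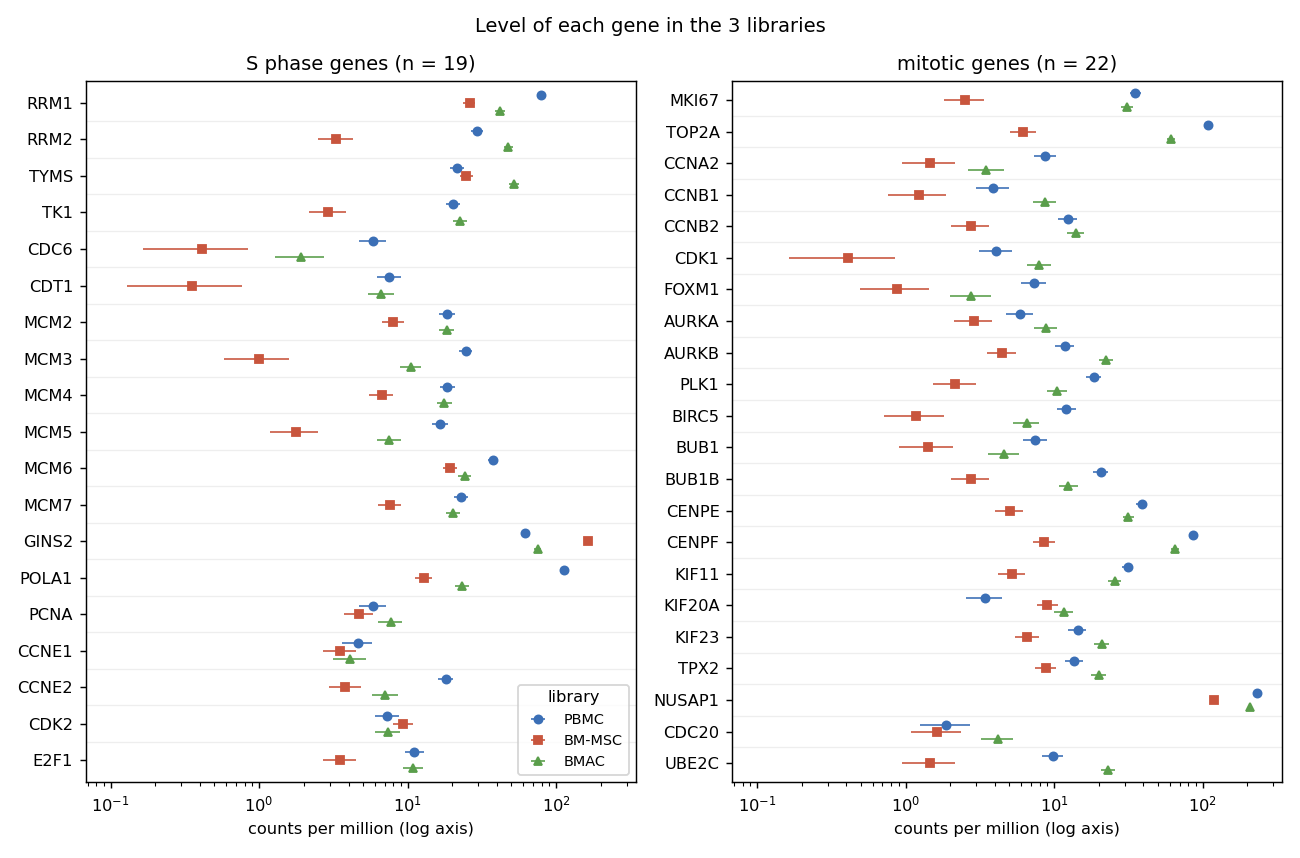
Level of each of the 19 S phase genes (left) and 22 mitotic genes (right) in PBMC (circles), BM-MSC (squares) and BMAC (triangles), in CPM on a log axis; whiskers are 95% exact Poisson intervals. Squares lie to the left of the other 2 symbols for 37 of 41 genes (PCNA and CDC20 turn with TMM factors), and GINS2 is an exception with its square at 164 CPM.

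A gene was counted as different in a pair of libraries when log2 of the ratio of (CPM + 1) was at least 2 in size, that is 4-fold, and the higher library had at least 10 CPM and 10 counts. Between BM-MSC and PBMC, 5 of 19 S phase genes and 8 of 22 mitotic genes passed this rule with the higher level in PBMC, and 0 with the higher level in BM-MSC. Of all 11428 genes that reached the floor in this pair, 15.7% passed towards PBMC and 14.3% towards BM-MSC. Only 27 of the 41 members reached the floor, and 21 of them through PBMC alone, so the count is a description and not support for a direction. Over every member, whatever its level, the median log2 ratio was -1.48 for S phase genes and -1.92 for mitotic genes, beside -0.16 for all genes at the floor. PBMC had the higher level for 16 of 19 S phase and 21 of 22 mitotic genes, and for 53.4% of all genes at the floor. With TMM factors it did for 15 and 20. Those factors moved the median of all genes in this pair to 0.23 and the member medians to -1.17 and -1.68. The same numbers of members passed the rule, while the count of all genes passing towards PBMC went from 1794 to 1379. The share of passing genes that were higher in BM-MSC went from 47.6% to 58.5%. Leukocyte markers differed in the same direction, and their part in these values was not tested.

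Between BMAC and PBMC the median log2 ratios were -0.13 for S phase and -0.17 for mitotic genes, beside -0.12 for all genes at the floor. Of the S phase genes, 1 passed the rule towards PBMC, where 12.8% of 11371 genes did, and 0 towards BMAC, where 14.0% did. No mitotic gene passed it in either direction (0 of 22). Levels lay within 2-fold for 31 of 41 members after the pseudocount, against 48.8% of all genes at the floor. These are unlike sets, as only 29 of the 41 were at the floor and the pseudocount shrinks the ratios of low genes. BMAC was higher for 10 mitotic and 6 S phase genes and lower for 12 and 13. These directions rest on small ratios: with TMM factors, which rescale libraries to their common genes, 12 mitotic and 12 S phase genes were higher in BMAC, and the medians became 0.10 and 0.09, while that of all genes moved to 0.21. The share of passing genes that were higher in BMAC went from 52.3% to 60.0%.

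Between BM-MSC and BMAC, 3 of 19 S phase and 8 of 22 mitotic genes passed the rule with the higher level in BMAC, and 0 with the higher level in BM-MSC. CCNB2 lay at the edge of the rule and did not pass with TMM factors, at a log2 ratio of -1.98. In this pair 3.21% of 10303 genes passed towards BMAC and 2.90% towards BM-MSC. Of the 26 members at the floor, 20 reached it through BMAC alone, so this count too is given as a description. Over all members the median log2 ratio was -1.05 for S phase and -1.85 for mitotic genes, beside -0.09 for all genes at the floor. BMAC held the higher level for all 22 mitotic genes and 17 of 19 S phase genes, here also with TMM and median-of-ratios factors. Pan-leukocyte markers stood at a similar 1.82 and 2.05 CPM in these libraries, and stromal markers summed to 13432 CPM in BM-MSC and 11443 in BMAC. Single stromal markers differed in both directions. THY1 was 5.22-fold higher in BM-MSC (4.89 to 5.57) and COL3A1 3.50-fold higher in BMAC (3.44 to 3.57). Each library enters 2 of the 3 comparisons, so the 3 sets of ratios are not independent.

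**Figure D3:**
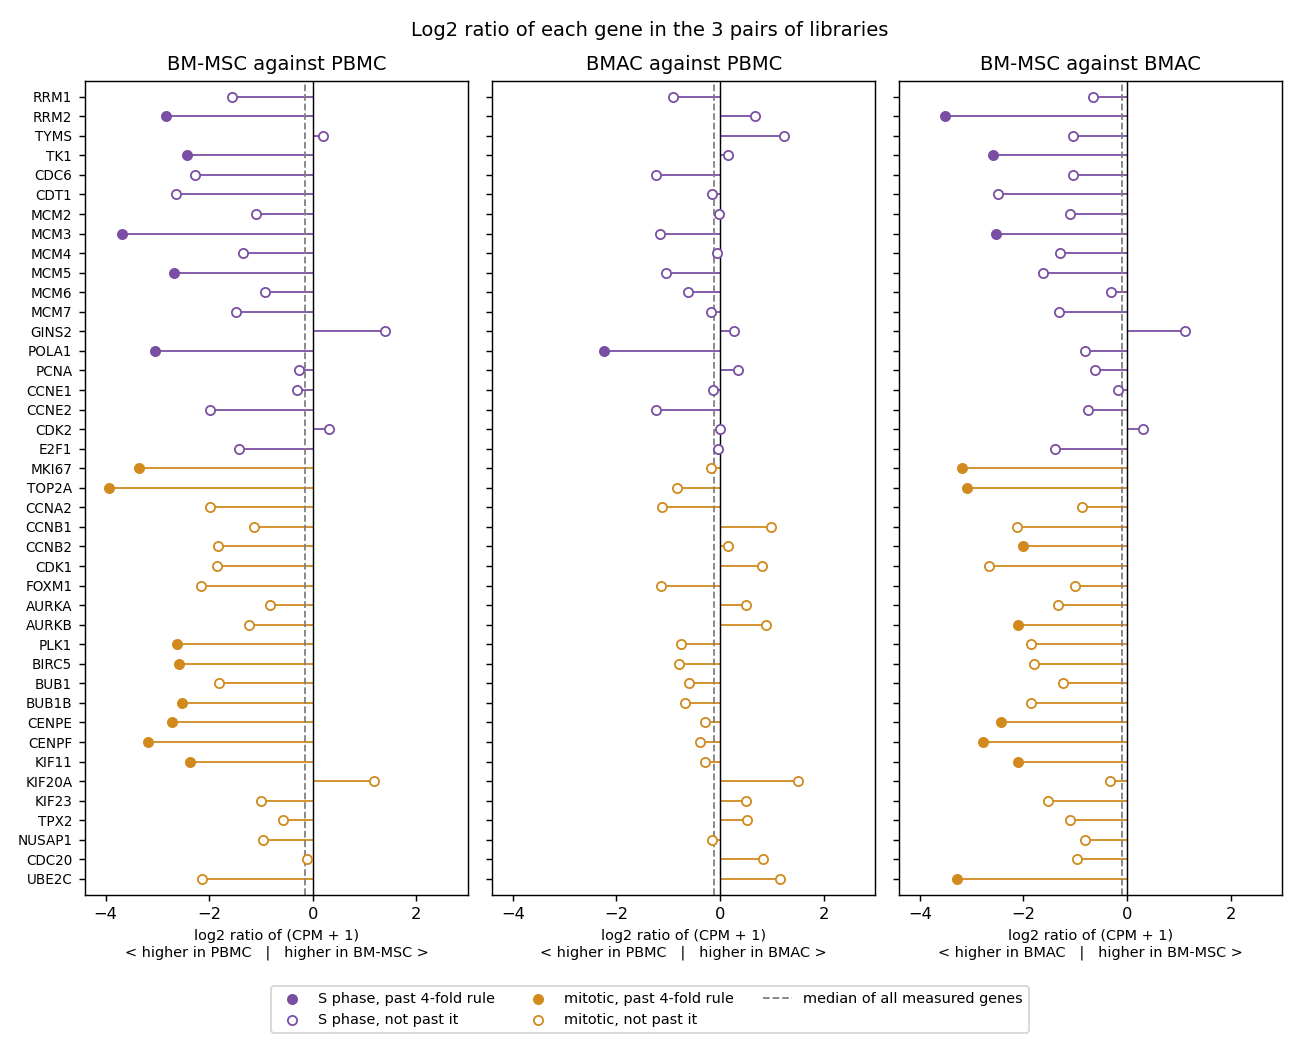
Log2 ratio of (CPM + 1) for each gene in BM-MSC against PBMC, BMAC against PBMC and BM-MSC against BMAC; filled points passed the 4-fold rule and the dashed line is the median of all genes at the floor. In BM-MSC against PBMC 13 points are filled, all on the PBMC side; in BMAC against PBMC the 1 filled point is POLA1.

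Among genes that supply nucleotides, RRM2 and TK1 were low in BM-MSC, and TYMS was highest in BMAC. RRM2, the regulatory subunit of ribonucleotide reductase that is made in S phase, stood at 29.5 CPM in PBMC, with 3.28 in BM-MSC and 47.7 in BMAC. BMAC thus exceeded BM-MSC 14.6-fold (11.1 to 19.5) and PBMC 1.62-fold (1.44 to 1.82). The catalytic subunit gene RRM1 had another order, 79.2 CPM in PBMC, with 26.1 in BM-MSC and 41.7 in BMAC. The count of RRM2 relative to RRM1 was 0.373 in PBMC (0.334 to 0.415), with 0.126 in BM-MSC (0.0936 to 0.166) and 1.15 in BMAC (1.03 to 1.28). The ratio of these transcript counts thus differed between the 3 libraries beyond counting error. The subunit proteins were not measured. TK1, the cytosolic thymidine kinase, stood at 20.2, 2.93 and 22.5 CPM, and PBMC and BMAC differed by 1.11-fold (0.952 to 1.30), within counting error. With TMM factors the log2 ratio of TK1 in BMAC against PBMC went from 0.15 to 0.42. TYMS, thymidylate synthase, stood at 21.6 CPM in PBMC and 24.9 in BM-MSC (1.15-fold, 0.995 to 1.33), against 52.1 in BMAC. TYMS, GINS2, CDK2 and KIF20A were the 4 members for which BM-MSC was not the lowest library.

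The helicase loading factors had few counts in BM-MSC. CDC6, which loads the helicase onto origins, had 90 counts in PBMC, with 7 in BM-MSC and 29 in BMAC, or 5.83, 0.410 and 1.92 CPM. CDT1, its partner in loading, had 116, 6 and 100 counts, or 7.51, 0.352 and 6.61 CPM. PBMC exceeded BM-MSC 14.2-fold for CDC6 (6.62 to 36.3) and 21.4-fold for CDT1 (9.52 to 59.4), and both genes stayed below 10 CPM in all libraries. BMAC and PBMC differed by 1.14-fold for CDT1 (0.862 to 1.50), within counting error, but CDC6 was 3.04-fold lower in BMAC (1.98 to 4.79).

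The 6 subunits of the MCM2-7 helicase, which form 1 ring, were all lower in BM-MSC than in PBMC, by unequal amounts. MCM3 had the largest difference at 24.7 CPM in PBMC, with 0.996 in BM-MSC and 10.5 in BMAC, 24.8-fold between PBMC and BM-MSC (15.3 to 43.0). MCM5 followed at 16.6, 1.76 and 7.54 CPM, 9.47-fold (6.47 to 14.3). The other 4 differed by 1.95-fold to 3.03-fold. MCM6 had the smallest difference, at 37.7, 19.3 and 24.2 CPM, and MCM2 stood at 18.4, 8.03 and 18.3 CPM. MCM4 at 18.5, 6.68 and 17.7 CPM and MCM7 at 22.9, 7.56 and 20.2 CPM overlap LOC102164310 and AP4M1. Between BMAC and PBMC, MCM2, MCM4 and MCM7 differed by at most 1.14-fold with intervals that include 1, while MCM3, MCM5 and MCM6 were 2.35-fold, 2.21-fold and 1.56-fold lower in BMAC. With TMM factors the log2 ratios of MCM2, MCM4 and MCM7 in this pair were 0.26, 0.21 and 0.09. GINS2, a subunit of the GINS complex that activates the helicase, went the other way, at 61.6 CPM in PBMC, with 164 in BM-MSC and 75.1 in BMAC. It was 2.66-fold higher in BM-MSC than in PBMC (2.47 to 2.86), a value that cannot be assigned to GINS2 rather than GSE1.

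POLA1, the catalytic subunit of the polymerase that primes DNA synthesis, passed the rule towards PBMC against both marrow libraries. It stood at 113 CPM in PBMC, with 12.8 in BM-MSC and 23.3 in BMAC. PBMC exceeded BM-MSC 8.80-fold (7.64 to 10.2) and BMAC 4.85-fold (4.32 to 5.46), the 1 member past the rule between BMAC and PBMC. With TMM factors its log2 ratio in that pair was -1.95 and no longer past the rule. PCNA, the sliding clamp, was low throughout at 5.83, 4.69 and 7.67 CPM. PBMC and BM-MSC differed 1.24-fold for PCNA (0.910 to 1.70), within counting error.

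The regulators of S phase entry split. CCNE1, a cyclin E, stood at 4.60, 3.52 and 4.10 CPM and no pair differed beyond counting error. CCNE2, the other cyclin E, which overlaps INTS8, stood at 18.1 CPM in PBMC, with 3.81 in BM-MSC and 7.08 in BMAC. The count of CCNE2 relative to CCNE1 was 3.93 in PBMC (3.02 to 5.17), with 1.08 in BM-MSC (0.751 to 1.57) and 1.73 in BMAC (1.25 to 2.40). CDK2, the kinase that binds cyclin E, stood at 7.32, 9.37 and 7.34 CPM, at most 1.28-fold apart. E2F1, a transcription factor of replication genes, stood at 11.1, 3.52 and 10.8 CPM, 3.17-fold lower in BM-MSC than in PBMC (2.35 to 4.32) while PBMC and BMAC differed by 1.03-fold, within counting error (0.824 to 1.28).

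TOP2A and MKI67, whose products sit on the chromosomes of cycling cells, were among the mitotic genes with the largest ratios between PBMC and BM-MSC, 17.6-fold (14.5 to 21.6) and 14.0-fold (10.2 to 19.5). TOP2A, the topoisomerase that untangles chromosomes, stood at 109 CPM in PBMC, with 6.21 in BM-MSC and 61.0 in BMAC. MKI67, which coats mitotic chromosomes and is used as a marker of cycling cells, stood at 35.2, 2.52 and 30.9 CPM. BMAC exceeded BM-MSC 9.83-fold for TOP2A (8.03 to 12.1) and 12.3-fold for MKI67 (8.96 to 17.2). Between PBMC and BMAC the difference was 1.79-fold for TOP2A (1.65 to 1.94) and 1.14-fold for MKI67 (1.01 to 1.29), the latter turning to the other direction with TMM factors.

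CDK1 and the mitotic cyclins were scarce in BM-MSC, and CDK1 and CCNB1 were higher in BMAC than in PBMC. CDK1, the kinase that starts mitosis, had 63 counts in PBMC, with 7 in BM-MSC and 120 in BMAC, or 4.08, 0.410 and 7.93 CPM. BMAC exceeded BM-MSC 19.3-fold (9.11 to 49.2) and PBMC 1.95-fold (1.42 to 2.68). CCNB1, its cyclin B partner, stood at 3.88, 1.23 and 8.66 CPM, 2.23-fold higher in BMAC than in PBMC (1.63 to 3.08). CCNB2, the second B-type cyclin, stood at 12.4, 2.75 and 14.0 CPM, and PBMC and BMAC did not differ beyond counting error (1.13-fold, 0.923 to 1.38). This holds for library totals, and with TMM factors the log2 ratio of CCNB2 in this pair went from 0.16 to 0.42. CCNA2, cyclin A, which overlaps EXOSC9, was instead highest in PBMC, at 8.74, 1.46 and 3.50 CPM. FOXM1, the transcription factor of late cycle genes, had the same order at 7.32, 0.879 and 2.78 CPM, 2.63-fold higher in PBMC than in BMAC (1.83 to 3.85). Cyclin A and FOXM1 thus had the opposite direction to CDK1 and CCNB1 in BMAC against PBMC, and these 4 directions were also found with TMM and median-of-ratios factors.

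Of 6 mitotic kinases and checkpoint genes, 2 were higher in BMAC than in PBMC and 4 were lower. The 2 were AURKA and AURKB, and both rows overlap others, so their reads may belong to either. AURKB, the kinase of the chromosomal passenger complex, stood at 11.8 CPM in PBMC, with 4.45 in BM-MSC and 22.5 in BMAC, 1.91-fold higher in BMAC than in PBMC (1.59 to 2.30). Its row overlaps 2 transfer RNA rows. AURKA, the spindle pole kinase, which overlaps CSTF1, stood at 5.89, 2.87 and 8.79 CPM. BIRC5, survivin, the partner of AURKB in the same complex, was lower in BMAC than in PBMC by 1.85-fold (1.44 to 2.38), at 12.1, 1.17 and 6.55 CPM. PLK1, the Polo kinase, which overlaps ERN2, stood at 18.5, 2.17 and 10.5 CPM. The spindle checkpoint kinases BUB1 and BUB1B stood at 7.45, 1.41 and 4.63 CPM and at 20.6, 2.75 and 12.5 CPM. For PLK1, BUB1 and BUB1B, PBMC exceeded BMAC by 1.61-fold to 1.75-fold and BM-MSC by 5.30-fold to 8.51-fold.

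The kinetochore genes and KIF11 were within 1.32-fold between PBMC and BMAC and lower in BM-MSC. The cytokinesis motors KIF20A and KIF23 were highest in BMAC, but both rows overlap another gene, so their reads may belong to either. CENPF and CENPE, large kinetochore proteins, stood at 85.9, 8.55 and 65.3 CPM and at 38.8, 5.04 and 31.7 CPM. The row of CENPF overlaps LOC106505039. KIF11, the motor that separates spindle poles, stood at 31.3, 5.21 and 25.7 CPM. For these 3 genes BMAC exceeded BM-MSC by 4.92-fold to 7.63-fold and PBMC exceeded BMAC by at most 1.32-fold, a direction that turned for CENPE and KIF11 with median-of-ratios factors. KIF20A, a motor of cytokinesis, had 3.43 CPM in PBMC, against 9.02 in BM-MSC and 11.6 in BMAC, and overlaps CDC23. BMAC exceeded BM-MSC by only 1.28-fold for KIF20A (1.03 to 1.60). KIF23, also a motor of cytokinesis, which overlaps LOC106509080, stood at 14.4, 6.62 and 20.9 CPM.

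The spindle assembly genes TPX2 and NUSAP1 differed less between BM-MSC and PBMC. TPX2, the activator of AURKA, stood at 13.7 CPM in PBMC, with 8.79 in BM-MSC and 20.0 in BMAC, 1.55-fold lower in BM-MSC than in PBMC (1.25 to 1.93). NUSAP1, which bundles spindle microtubules, stood at 234, 119 and 209 CPM, but overlaps OIP5 and NDUFAF1. UBE2C, the ubiquitin-conjugating enzyme of the anaphase-promoting complex, stood at 9.84 CPM in PBMC, with 1.46 in BM-MSC and 23.1 in BMAC. BMAC exceeded BM-MSC 15.8-fold (10.5 to 24.7) and PBMC 2.35-fold (1.93 to 2.86) for UBE2C. CDC20, the activator of that complex, was sparse at 29, 28 and 63 counts, 2.22-fold higher in BMAC than in PBMC (1.41 to 3.57).

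Other genes of the same processes were taken from lists for comparison. Of 46 further replication genes with a row, 11 were past the rule towards PBMC and 0 towards BM-MSC in BM-MSC against PBMC, where 15.7% of all genes at the floor passed towards PBMC and 14.3% towards BM-MSC. Of the 46, 34 were at the floor, 11 of them through PBMC alone, and the median log2 ratio over all 46 was -1.29. In BMAC against PBMC 4 passed towards PBMC, beside 12.8% of all genes, and 0 towards BMAC, beside 14.0%. There 34 of the 46 were at the floor, 8 of them through PBMC alone, and 4 calls are near the share of all genes. The median in this pair was -0.82, beside -0.13 for the S phase members and -0.12 for all genes. The replicative polymerase gene POLE stood at 121 CPM in PBMC, with 16.7 in BM-MSC and 28.2 in BMAC, in the same order as POLA1. RFC3, a subunit of the clamp loader, stood at 91.7, 13.0 and 15.3 CPM and overlaps LOC102159559. PRIM2, the primase subunit that works with POLA1, stood at 92.3, 10.8 and 30.7 CPM. CLSPN, a fork protection factor that overlaps AGO4, stood at 53.0, 4.39 and 13.2 CPM. E2F2, an E2F factor whose row overlaps LOC110261115, stood at 20.4, 0.703 and 0.860 CPM. Between BM-MSC and BMAC 0 of these 46 passed in either direction, beside 3.21% of all genes towards BMAC and 2.90% towards BM-MSC, and the median was -0.33.

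Of 68 further mitosis genes, 7 passed the rule towards PBMC in BM-MSC against PBMC, beside 15.7% of all genes at the floor, and 0 towards BM-MSC, beside 14.3%. In that pair 40 of the 68 were at the floor, 26 of them through PBMC alone, and 7 calls are near the share of all genes. In BM-MSC against BMAC 6 passed towards BMAC, beside 3.21% of all genes, and 0 towards BM-MSC, beside 2.90%, with 39 at the floor, 25 of them through BMAC alone. Medians over all 68 were -1.15 and -1.16 in these pairs. In BMAC against PBMC 3 passed towards PBMC, beside 12.8% of all genes, and 0 towards BMAC, beside 14.0%, with 46 at the floor, so these counts were below the shares of all genes. The median there was -0.14, beside -0.12 for all genes. CDC25B, a phosphatase that activates CDK1, stood at 113, 6.15 and 18.8 CPM, and HMGB2, a chromatin protein, at 203, 14.8 and 42.7 CPM. TACC3, a spindle protein that overlaps TMEM129, stood at 24.7, 2.52 and 12.0 CPM, and the motor gene KIF22 at 13.2, 1.41 and 2.45 CPM. NEK2, a centrosome kinase, had 36 counts in PBMC, with 4 in BM-MSC and 179 in BMAC, or 2.33, 0.234 and 11.8 CPM. BMAC exceeded BM-MSC 50.5-fold for NEK2 (19.4 to 187) and PBMC 5.08-fold (3.53 to 7.48), the latter not past the rule after the pseudocount. The motor gene KIF15 stood at 14.2, 1.41 and 14.1 CPM, and HMMR, a spindle protein that overlaps NUDCD2, at 15.3, 3.34 and 22.1 CPM.

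**Figure D4:**
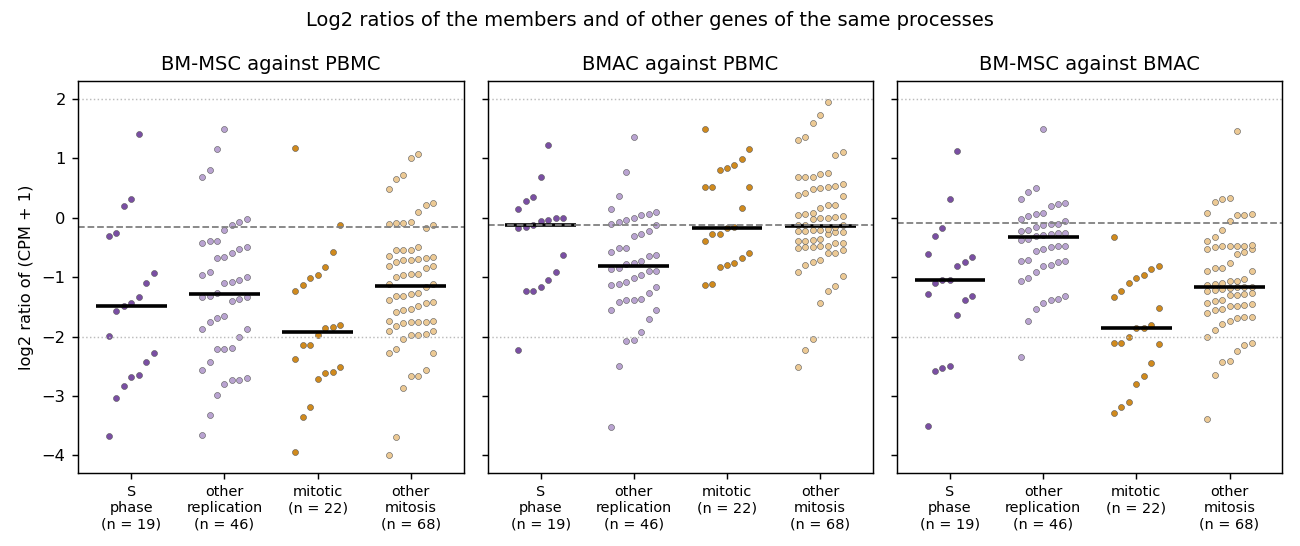
Log2 ratio of (CPM + 1) of each S phase gene (n = 19), other replication gene (n = 46), mitotic gene (n = 22) and other mitosis gene (n = 68) in the 3 pairs, where each point is a gene; black bars are medians, the dashed line is the median of all genes at the floor and dotted lines mark 4-fold. In BMAC against PBMC the bar of the other replication genes is at -0.82 and those of the mitotic lists are at -0.17 and -0.14.

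Genes that act before S phase included several with higher levels in the marrow libraries. Of 20 genes of G1 entry and cell cycle brakes, 5 passed the rule towards BM-MSC, beside 14.3% of all genes at the floor, and 2 towards PBMC, beside 15.7%. In BMAC against PBMC 4 passed towards BMAC, beside 14.0%, and 1 towards PBMC, beside 12.8%. At the floor were 18 of the 20 in the first pair, 6 of them through BM-MSC alone and 3 through PBMC alone, and 19 in the second, 7 through BMAC alone and 1 through PBMC alone. The counts towards PBMC were thus near or below the shares of all genes, and those towards the marrow libraries are a description. CCND1, cyclin D1, had 17 counts in PBMC and stood at 1080 CPM in BM-MSC and 492 in BMAC. CCND3, cyclin D3, stood at 1218 CPM in PBMC, with 99.3 in BM-MSC and 190 in BMAC. The CDK inhibitor genes CDKN1A and CDKN1C were higher in both marrow libraries, CDKN1A at 379 CPM in BM-MSC and 227 in BMAC against 8.42 in PBMC, and CDKN1C at 24.6 and 33.3 against 0.583. CDKN1A was 1.67-fold higher in BM-MSC than in BMAC (1.60 to 1.74), while CDKN1C was 1.35-fold lower (1.19 to 1.55). RBL1, a pocket protein that represses E2F targets, stood at 67.2, 7.62 and 24.5 CPM. Between BM-MSC and BMAC 0 of the 20 passed in either direction. Of all genes, 3.21% passed towards BMAC and 2.90% towards BM-MSC, and 0 of 20 is near those shares.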

How the data were processed

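The deposited values are raw counts per gene row (whole numbers whose totals differ), 1 file for each of PBMC, BM-MSC and BMAC. RNA was extracted with Trizol and 500 ng went into a QuantSeq library, per the labels' protocols. Per the submitters' processing notes, the tools included Bowtie2 and bedtools, with no version or role. For the genome build, annotation, strand setting and multiply matching reads, nothing is stated: not given in the sources used here. From these counts, rows of one symbol were summed and divided by the library total to give CPM. No test was run, because each population has 1 library. Folds are CPM ratios with a 95% exact conditional (Clopper-Pearson) interval, which covers counting error only. Intervals use library totals, so a difference called within counting error can lie outside it with another scaling. Reads are not known to be separate molecules, so the intervals may be too narrow even for counting error. Overlapping genes were taken from the RefSeq table of Sscrofa11.1, which holds all 26466 symbols. A gene was called uncertain when an overlapping row held at least 25% of its count in at least 1 library. TMM factors came from edgeR 4.0.16 and the rest from Python 3.11.15 with scipy 1.17.1. The size rule and intervals were tried on simulated Poisson counts, with changes placed only in genes at levels above those of most members. How well changes are found in low genes was therefore not checked. Members and lists were chosen with earlier results of these data known. The text names every member and, from the other lists, the 3 genes with the largest log2 ratio past the rule per pair and direction. Of the listed genes, 3 had no matching row and were not analysed here, and neither were promoter or protein sequences. Alternatives were other scalings (TMM, median-of-ratios, totals without ribosomal RNA rows), a pseudocount of 5 CPM, a floor of 1 CPM, a 2-fold size and leaving out overlapping rows.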

Additional observations from a re-analysis of the deposited data

How the results depend on the processing

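With 1 library per population, depth sets the limit for low genes, and no alternative adds a replicate. CDC6, CDT1, PCNA, CCNE1, CCNA2, CCNB1, CDK1, FOXM1, AURKA, BUB1 and CDC20 rest on fewer than 150 counts in every library. Rescaling by TMM or by median-of-ratios took the median log2 ratio of all genes from -0.16 to 0.23 and 0.26 in BM-MSC against PBMC and from -0.12 to 0.21 and 0.22 in BMAC against PBMC. It moved the share of passing genes that were higher in the marrow library from 47.6% to 58.5% and 59.5%, and from 52.3% to 60.0% and 60.3%. In BMAC against PBMC the member medians changed sign, to 0.09 and 0.10 for S phase genes and 0.10 and 0.11 for mitotic genes. The count of S phase genes past the rule towards PBMC went from 1 to 0 with both. That of all genes in this direction went from 1451 to 1215 (TMM) and 1210 (median-of-ratios). In BM-MSC against PBMC the direction turned for PCNA and CDC20 with both factors. Counts past the rule there were 5 S phase and 8 mitotic genes with both factors, all towards PBMC. Of all genes, 1379 (TMM) and 1351 (median-of-ratios) passed in that direction, against 1794 of 11428 (15.7%) with library totals. Towards BM-MSC 1946 and 1986 passed. How many genes reached the floor with these factors is not given, so no share can be set beside the member counts.

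A pseudocount of 5 CPM shrinks ratios of low genes by construction. In BM-MSC against PBMC it gave medians of -1.01 and -1.08. There 3 S phase and 4 mitotic genes were past the rule towards PBMC, beside 1258 of 11428 genes. In BM-MSC against BMAC it gave 1 and 4 genes, beside 198 of 10303 genes towards BMAC, and a mitotic median of -1.14. With a 2-fold size, BM-MSC against PBMC had 11 S phase and 11 mitotic genes towards PBMC, beside 3629 of 11428 genes. Towards BM-MSC there were 1 and 0, beside 3014. BMAC against PBMC then had 4 S phase genes towards PBMC, beside 3002 of 11371 genes. Towards BMAC it had 1 S phase and 2 mitotic genes, beside 2817, so these counts were near or below the shares of all genes. BM-MSC against BMAC had 8 S phase genes towards BMAC, beside 1140 of 10303 genes, and 1 towards BM-MSC, beside 845. Among mitotic genes, PLK1, BUB1B, KIF23 and TPX2 then passed towards BMAC in addition to those past the 4-fold rule. With a floor of 1 CPM, without overlapping rows and without ribosomal RNA rows, the counts of members past the rule stayed within 1.5 times and every median kept its direction. Without ribosomal RNA rows, 9 S phase genes were higher in BMAC than in PBMC, against 6.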
